A study of Mus musculus with 4 samples.

Results

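Neutrophils were described here as 67 cells out of 16541 kept lung cells, of which 7 lay in the Cre_Pos pool and 60 in the Cre_Neg pool. A kept cell had at least 500 genes and at most 15% mitochondrial transcripts. A kept cell was counted as a neutrophil when it had a transcript (UMI, a read group counted once) of at least 3 of the 6 genes Il1r2, Csf3r, S100a9, Trem1, Cxcr2 and Mmp9, and of fewer than 3 of the 5 endothelial genes Cdh5, Ptprb, Pecam1, Tek and Calcrl. The cells were thus chosen by the measured UMIs of these genes, whose values are given as a description and support nothing.

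The study profiled mouse lung by SPLiT-seq, in which fixed cells are marked by rounds of barcoding in wells. Cre_Pos mice carried Shh-Cre and a floxed allele of p73 (gene symbol Trp73) whose exons 7 to 9 can be removed. Cre_Neg mice were littermates with 2 copies of the floxed allele and no Cre. All were C57Bl6/J mice at 8 weeks of age, and 6 mice were pooled for each genotype, so there was 1 pool per genotype and no replicate between animals. Shh-Cre is a driver of the lung epithelium and not of blood cells. PBS perfusion, removal of CD45-positive cells by beads and enrichment for Epcam came before the sort of live cells. Neutrophils carry CD45, so those measured are cells that escaped the depletion, and their share says nothing of their share in the lung. The 4 sublibraries were aliquots that each held cells of both pools, and they measure technical spread only.

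Neutrophils are short-lived granulocytes made in the bone marrow under the cytokine G-CSF, and they enter the lung from its capillaries by way of chemoattractant receptors such as Cxcr2. They load their granules in order of maturation, azurophil granules first, then specific and gelatinase granules, so that mature cells hold granule proteins whose genes they no longer transcribe. They kill microbes with the NADPH oxidase, granule proteases and extracellular traps, and they release IL-1β and other mediators.

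The Cre_Pos neutrophils held 58481 UMIs in all and the Cre_Neg neutrophils 204745. Per cell, the lowest, median and highest UMI counts were 4229, 4568 and 15740 in Cre_Pos and 796, 2766.5 and 25691 in Cre_Neg. The median number of genes was 1488 in Cre_Pos and 1167.5 in Cre_Neg, and the median mitochondrial share was 0.946% in Cre_Pos and 0.834% in Cre_Neg. Other kept Cre_Neg cells had a median of 8823 UMIs, so the neutrophils were shallow cells. Lowering the gene minimum to 200 added 0 Cre_Pos and 4 Cre_Neg neutrophils. Scrublet called 1.14% of kept cells doublets, among them 1 Cre_Neg neutrophil, and called doublets were not removed. The labels state 20000 cells, against 16541 kept here. Of the kept cells, 283 well combinations occurred in more than 1 sublibrary, and 1 neutrophil had such a combination. Trp73 had 0 UMIs in the neutrophils of both pools. In all other kept cells it stood at 12.5 CPM (UMIs of the gene per 1e6 UMIs summed over the cells) in Cre_Pos and 85.9 CPM in Cre_Neg.

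Neutrophils made up 0.0800% of kept Cre_Pos cells (7 of 8748, exact 95% interval 0.0322 to 0.165%) and 0.770% of kept Cre_Neg cells (60 of 7793, 0.588 to 0.990%). The share was 9.62-fold lower in Cre_Pos, with a 95% interval of 4.39 to 25.0. By sublibrary, the Cre_Pos shares were 0, 0.206, 0.0866 and 0%, and the Cre_Neg shares were 0.855, 0.753, 0.723 and 0.740%. The highest Cre_Pos share lay below the lowest Cre_Neg share, and the Cre_Pos cells came from sublibraries 2 and 3 alone. Where Cre_Pos had 0 neutrophils, a limit of 3 counts of the total allows shares of up to 0.127% in sublibrary 1 and 0.181% in sublibrary 4, and the exact 95% intervals end at 0.157% in sublibrary 1 and 0.222% in sublibrary 4. Without sublibrary 2, which held 5 of the 7 Cre_Pos cells, the ratio of Cre_Pos to Cre_Neg was 0.0407 in place of 0.104. These intervals cover counting error only: no test between genotypes was possible with 1 pool each, and a difference between genotypes and one between 2 pools cannot be told apart.

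**Figure D1:**
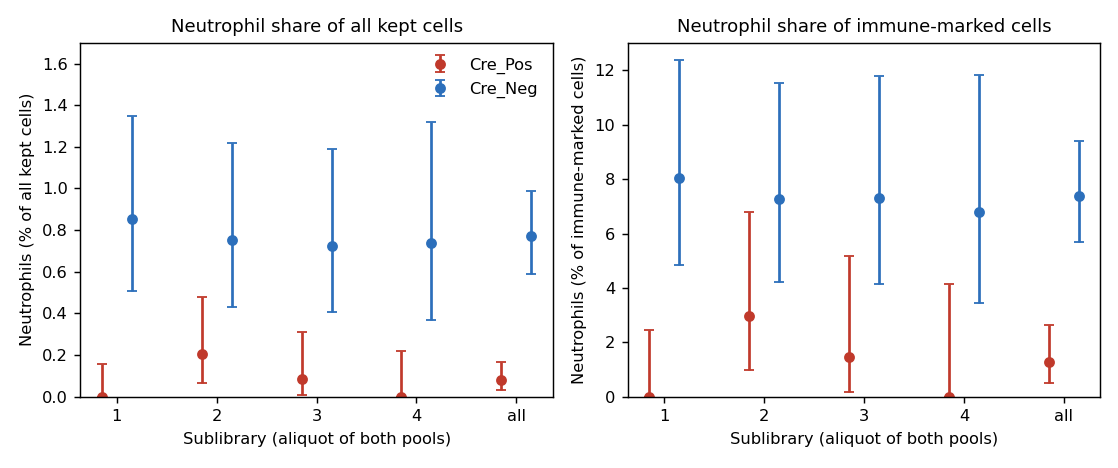
Neutrophil share of kept cells (left, percent) and of cells with immune markers (right, percent) in each sublibrary and in all 4 together. Points are shares and bars exact 95% intervals for counting error; the Cre_Pos share lies below the Cre_Neg share in every sublibrary.

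The depletion of CD45-positive cells sets all leukocyte shares, so the neutrophils were also counted among cells with immune markers (at least 3 UMI-positive markers of any of 10 immune types). There they made up 1.30% of Cre_Pos cells (7 of 540, 0.523 to 2.65%) and 7.40% of Cre_Neg cells (60 of 811, 5.69 to 9.42%). This was 5.71-fold lower in Cre_Pos (2.61 to 14.8). By sublibrary, the shares were 0, 2.98, 1.46 and 0% in Cre_Pos and 8.04, 7.27, 7.32 and 6.79% in Cre_Neg, again without overlap. Among kept cells with a UMI of Ptprc, the gene of CD45 itself, neutrophils were 1.04% in Cre_Pos (7 of 676) and 6.31% in Cre_Neg (60 of 951). Not every leukocyte set differed by as much. Cells with at least 3 monocyte markers and no other immune identity (monocyte-marked cells) were 1.47% of Cre_Pos and 1.89% of Cre_Neg cells, 1.28-fold lower in Cre_Pos (1.00 to 1.63). Cells with at least 3 alveolar macrophage markers were 0.0572% of Cre_Pos and 2.50% of Cre_Neg cells, 43.8-fold lower in Cre_Pos (18.4 to 136).

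The neutrophil label held for most cells but not for all. Of the 7 Cre_Pos cells, 4 had all 6 genes, with 4229 to 4568 UMIs and 0 or 1 of 8 monocyte markers. The other 3 had just 3 of the 6 genes, with 10786 to 15740 UMIs and 5 or 6 of the 8 monocyte markers, and none of them had a UMI of S100a9, Cxcr2, Mmp9 or S100a8. Csf1r, the monocyte and macrophage growth factor receptor and itself 1 of those 8 markers, had 4 to 13 UMIs in each of these 3 cells. In each of the 4 it had 0 to 2. In Cre_Neg, 31 cells had all 6 genes, 19 had 5, 6 had 4 and 4 had 3. Of the last 4, 2 carried at least 3 monocyte markers, and 1, the deepest cell with 25691 UMIs, carried 8 alveolar macrophage markers. Of the 6 cells with 4 genes, 1 was the called doublet, which carried 7 markers of alveolar type 2 cells. Leaving out the cells with 3 monocyte markers, a step chosen after seeing the data, left 4 Cre_Pos and 58 Cre_Neg neutrophils. They were 0.0457% and 0.744% of kept cells, a share 16.3-fold lower in Cre_Pos (6.03 to 61.7). The cell with 8 alveolar macrophage markers and the called doublet stayed among the 58. A planned step left out members with at least 3 markers of alveolar macrophages, dendritic cells, lymphocytes or epithelial cells instead. It kept 6 Cre_Pos and 57 Cre_Neg neutrophils, 0.0686% and 0.731% of kept cells.

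**Figure D2:**
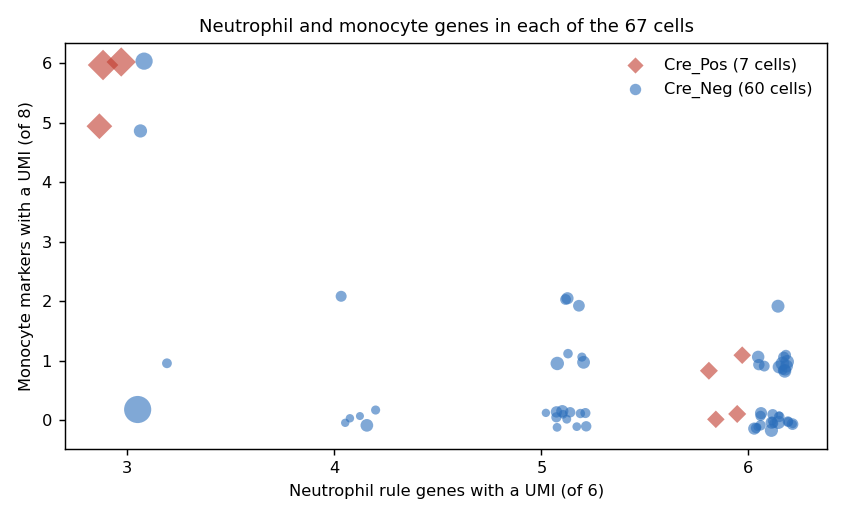
Each of the 67 neutrophils by the number of the 6 neutrophil genes with a UMI (x axis) and of 8 monocyte markers with a UMI (y axis); points are jittered and their area grows with the cell's UMIs. Of the 7 Cre_Pos cells, 3 sit at upper left with 5 or 6 monocyte markers and 4 at lower right with all 6 neutrophil genes.

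Just outside the threshold, with exactly 2 of the 6 genes, lay 42 Cre_Pos and 61 Cre_Neg cells. All 42 in Cre_Pos and 22 in Cre_Neg carried at least 3 monocyte markers, and 34 in Cre_Neg carried at least 3 alveolar macrophage markers. Of these 103 cells, 102 had a UMI of Csf3r and 81 of Trem1, but 22 had Il1r2, 1 had Mmp9 and none had S100a9 or Cxcr2. Csf3r and Trem1 were also found in other myeloid cells: Csf3r was found in 51.0% of Cre_Neg monocyte-marked cells and Trem1 in 44.1% of Cre_Neg alveolar-macrophage-marked cells.

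Markers of other cell types were sparse in the 60 Cre_Neg neutrophils. The 8 monocyte markers summed to 101 UMIs in the 7 Cre_Pos cells and 75 UMIs in the 60 Cre_Neg cells, of which 36 had none. Alveolar macrophage markers summed to 4 UMIs in Cre_Pos and 87 in Cre_Neg, 85 of them in 1 cell. Markers of alveolar type 2 cells, the surfactant-making epithelium, summed to 14 UMIs in Cre_Pos and 136 in Cre_Neg, 110 of them in 1 cell. That cell had all 7 of these markers and was the one that Scrublet called a doublet. Markers of interstitial macrophages, basophils and mast cells, NK cells and platelets were at 0 in both pools. T cell, B cell, dendritic, eosinophil and erythroid markers were at 0 in Cre_Pos and at 3, 14, 3, 2 and 2 UMIs in Cre_Neg. Ly6g, the usual surface marker of mouse neutrophils, had 0 UMIs in every kept cell, so it could not serve as a check.

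The 6 genes that chose the cells comprise 4 receptors, a calprotectin chain and a protease. Csf3r, the G-CSF receptor, had a UMI in all 60 Cre_Neg cells, with a lowest, median and highest level of 38.9, 5479 and 13999 CPM. Summed over the pool it stood at 4523 CPM (95% interval 4236 to 4824), and by sublibrary at 4454, 5276, 3301 and 5393 CPM. Il1r2, the decoy receptor that binds IL-1 without signalling, had a UMI in 59 of the 60 cells and stood at 4884 CPM (4586 to 5196), with a median of 4322 CPM per cell. Cxcr2, the receptor for neutrophil-drawing chemokines, had a UMI in 56 cells and stood at 1011 CPM (878 to 1159). Il1r2 stood at 15.8 CPM in monocyte-marked cells and 2.30 CPM in all other kept Cre_Neg cells, and Cxcr2 had 0 UMIs in monocyte-marked cells. Of the UMIs in kept Cre_Neg cells, 84.2% of Il1r2, 71.1% of Csf3r and 70.4% of Cxcr2 lay in neutrophils. Monocyte-marked cells were chosen to have fewer than 3 of the 6 genes, so these contrasts are a description. Trem1, a receptor that amplifies inflammatory signals, had a UMI in 50 cells and stood at 1255 CPM (1106 to 1418). Mmp9, the gelatinase of the granules named after it, had a UMI in 41 cells and stood at 767 CPM (652 to 897).

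S100a9 and S100a8 encode the 2 chains of calprotectin, the abundant metal-binding protein of neutrophil cytoplasm, and S100a8 was not among the genes of the rule. S100a9 had 415 UMIs in 51 of the 60 Cre_Neg neutrophils, a level of 2027 CPM (1837 to 2232). It had 0 UMIs in the 147 monocyte-marked and 195 alveolar-macrophage-marked Cre_Neg cells and 4 UMIs in all other kept Cre_Neg cells. S100a8 had 140 UMIs in 39 of the 60 Cre_Neg neutrophils and 0 UMIs in all 7733 other kept Cre_Neg cells. Its level was 684 CPM (575 to 807), and by sublibrary 639, 1157, 445 and 499 CPM. Over monocyte-marked cells this was a log2 difference of at least 8.43, with the 0 set at a floor of 3 counts. The chains were found together in 36 Cre_Neg neutrophils, S100a8 alone in 3, S100a9 alone in 15 and neither in 6. In Cre_Pos, S100a9 had 46 UMIs in 4 cells and S100a8 13 UMIs in 3 of those cells.

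The promoters of this pair are shown because these genes were found almost nowhere else and mostly in the same cells. They were taken from RefSeq on GRCm38.p6, from 250 bases before to 50 bases after each annotated start, 5′ to 3′ on the gene's strand. Capitals mark matches to the motifs searched on both strands. S100a9 lies at chr3:90695672-90695971 on the minus strand and S100a8 at chr3:90668821-90669120 on the plus strand.
S100a9: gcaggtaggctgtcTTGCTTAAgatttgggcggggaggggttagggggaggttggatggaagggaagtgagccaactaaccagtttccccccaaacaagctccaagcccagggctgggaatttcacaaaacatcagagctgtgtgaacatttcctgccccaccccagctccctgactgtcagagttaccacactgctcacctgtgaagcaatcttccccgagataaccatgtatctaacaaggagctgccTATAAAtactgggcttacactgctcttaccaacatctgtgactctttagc
S100a8: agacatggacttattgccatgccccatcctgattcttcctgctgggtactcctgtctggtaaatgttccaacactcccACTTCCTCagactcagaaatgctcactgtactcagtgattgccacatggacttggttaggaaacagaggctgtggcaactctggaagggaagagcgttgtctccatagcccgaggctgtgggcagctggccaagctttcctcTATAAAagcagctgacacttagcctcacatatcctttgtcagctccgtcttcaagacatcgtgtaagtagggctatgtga

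The S100a9 window held a C/EBP match (motif TTGCNNAA) that began 236 bases before the annotated start, and a TATA box (TATAAA) at the start itself. The S100a8 window held a PU.1 match (motif GAGGAAGT) on the reverse strand, 172 bases before the start, and a TATA box 30 bases before it. Among 32851 mouse promoters of this length, 10.8% held the C/EBP motif, 3.2% the PU.1 motif, 13.6% the TATA box and 7.81% the AP-1 motif (TGANTCA). Of 7 genes looked up (the 6 rule genes and S100a8), 6 had a window in the table, and the other 4 windows held none of these motifs. A match is a run of letters and shows no binding.

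For genes that the rule did not use, the 60 Cre_Neg neutrophils were compared with the 147 Cre_Neg monocyte-marked cells, the myeloid set nearest to them. Of the 204745 UMIs of the 60 cells, 14507 lay in 2 cells with at least 3 monocyte markers. The cell with 8 alveolar macrophage markers held 25691, and the called doublet held 4493. Summed levels and calls below include these cells. A gene entered with at least 20 UMIs over both sets and was called at a 2-fold difference in summed CPM. Of 8547 genes, 12.9% were called higher and 38.0% lower in neutrophils, and the median log2 difference was -0.58. Of the 147 monocyte-marked cells, 27 also carried at least 3 epithelial markers. Without them, 13.8% of 6027 genes were called higher and 34.1% lower, with a median of -0.47. The 147 cells held 1515074 UMIs and the remaining 120 held 856795, and single genes shifted with this choice: against the 120, the log2 difference was 5.50 in place of 6.13 for Il1b, 2.00 in place of 2.71 for Ncf1 and 9.92 in place of 5.53 for Hdc. List counts are given against both sets, cover the members that reached the minimum, and are descriptions: a gene that reached it through neutrophils alone had to be called higher.

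Genes known for neutrophils are given first. Of 17 outside the rule, 9 had enough UMIs, and these 9 were called higher against both sets of monocyte-marked cells. Of the 9, 5 had 20 UMIs in the monocyte-marked cells, while S100a8, Retnlg and Clec4d reached that minimum through the neutrophils alone and so had to be called, and the count is a description that supports nothing. Mxd1, a MYC antagonist of late myeloid cells, stood at 3194 CPM in neutrophils and 27.7 CPM in monocyte-marked cells, a log2 difference of 6.85 (6.40 to 7.33). Hdc, which makes histamine, stood at 2256 CPM in neutrophils and 48.8 CPM in monocyte-marked cells, 5.53 (5.17 to 5.90). Neither gene was limited to neutrophils: of the UMIs in kept Cre_Neg cells, 17.8% of Mxd1 and 9.36% of Hdc lay in them. Clec4d, a lectin receptor for mycobacterial lipid, stood at 777 CPM in neutrophils and 9.24 CPM in monocyte-marked cells, 6.39 (5.60 to 7.30). Retnlg, a resistin-like protein of mouse neutrophils, had 37 UMIs in 18 neutrophils and 0 UMIs in monocyte-marked cells, a log2 difference of at least 6.51. Its level was 471 CPM in sublibrary 2 and 68.4 CPM in sublibrary 3, the highest and the lowest of the 4. Acod1, which makes itaconate, had 55 UMIs in 22 neutrophils and stood at 269 CPM in neutrophils and 17.8 CPM in monocyte-marked cells.

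**Figure D3:**
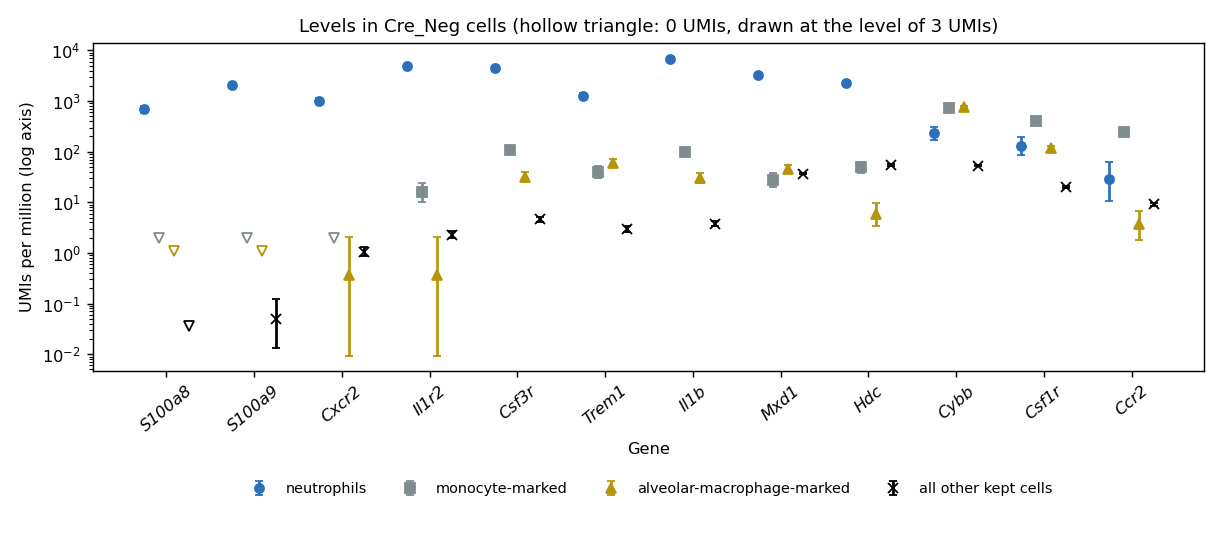
Levels of 12 genes (CPM, log axis) summed over Cre_Neg neutrophils, monocyte-marked, alveolar-macrophage-marked and all other kept cells, with exact 95% Poisson intervals for counting error; hollow triangles stand for 0 UMIs, drawn at the level of 3 UMIs. Neutrophils stand highest for S100a8 through Hdc and below monocyte-marked cells for Cybb, Csf1r and Ccr2. Csf1r and Ccr2 are among the markers that chose the monocyte-marked cells, and S100a9, Cxcr2, Il1r2, Csf3r and Trem1 among those that chose the neutrophils.

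Granule genes are given in the order in which their granules are made. The 6 azurophil granule genes, of the earliest granules, had 0 UMIs in all 60 Cre_Neg neutrophils. Of 8 specific granule genes, 2 had enough UMIs, Chil3 and Cd177, and both were called higher against both sets of monocyte-marked cells. All 98 UMIs of Chil3, a chitinase-like protein, lay in 1 cell, the one with 8 alveolar macrophage markers. Cd177, a surface protein of neutrophils, had 19 UMIs in 10 cells and stood at 92.8 CPM in neutrophils and 24.4 CPM in monocyte-marked cells, a log2 difference of 1.93 (1.05 to 2.76), or 1.36 against the 120. Among the others, Ngp had 11 UMIs in 1 cell and Lcn2 had 16 UMIs in 8 cells. Of 8 genes of the late gelatinase granules and secretory vesicles outside the rule, 5 had enough UMIs, of which 4 were called higher than in monocyte-marked cells and 2 against the 120, and none lower. The 3 that did not enter were sparse in neutrophils too, Alpl with 0, Anpep with 2 and Mmp25 with 7 UMIs in the 60 cells. Adam8, a membrane metalloprotease, had a UMI in 47 cells and stood at 1035 CPM in neutrophils and 35.6 CPM in monocyte-marked cells, a log2 difference of 4.86 (4.42 to 5.32). Mmp8, the neutrophil collagenase, had a UMI in 20 cells and stood at 254 CPM in neutrophils and 15.8 CPM in monocyte-marked cells, 4.00 (3.28 to 4.77). Itgam, the CD11b chain of the integrin Mac-1, had a UMI in 52 cells and differed by 1.46, or 0.74 against the 120. The 8 cell cycle genes had 2 UMIs in all in these cells.

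Chemoattractant receptors went both ways. Of 8 compared outside the rule, 6 were called higher and 2 lower than in monocyte-marked cells, and the same numbers held against the 120. Ccr1, a receptor for CC chemokines, stood at 317 CPM in neutrophils and 9.24 CPM in monocyte-marked cells, a log2 difference of 5.10 (4.25 to 6.05). C5ar1, the receptor of complement fragment C5a, stood at 440 CPM in neutrophils and 17.2 CPM in monocyte-marked cells, 4.68 (4.04 to 5.37). Fpr1, a receptor for formylated bacterial peptides, had 23 UMIs in neutrophils and 1 UMI in monocyte-marked cells, though alveolar-macrophage-marked cells had it at 112 CPM, the level of the neutrophils. The 2 lower ones, Ccr2 and Cx3cr1, are among the 8 markers that chose the monocyte-marked cells, so their calls support nothing. Ccr2 had 6 UMIs in neutrophils and 374 in monocyte-marked cells (log2 -3.07, -4.53 to -1.94). Cx3cr1 had 12 in neutrophils and 268 in monocyte-marked cells (-1.59, -2.56 to -0.76).

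The IL-1 family holds cytokines, receptors and the sensors that mature them. Of 10 compared outside the rule, 5 were called higher and 2 lower than in monocyte-marked cells (5 and 1 of 9 against the 120). Il1b, the gene of IL-1β, had a UMI in 56 of the 60 Cre_Neg neutrophils, with a lowest, median and highest level of 0, 8677 and 28069 CPM. It stood at 6843 CPM in neutrophils and 97.7 CPM in monocyte-marked cells, a log2 difference of 6.13 (5.88 to 6.38), and by sublibrary at 6917, 5943, 5251 and 10050 CPM. All 56 of these cells also had a UMI of the decoy receptor Il1r2, while 3 cells had Il1r2 alone and 1 had neither. Il1r2 is a rule gene found in nearly all of these cells, so this overlap says nothing of a link. Il1rap, the shared co-receptor of the family, differed by 4.92 (4.45 to 5.41), and Il18rap, the co-receptor for IL-18, by 7.15 (5.98 to 8.62). Il36g, an epithelial and myeloid cytokine of the family, had 71 UMIs in 33 neutrophils and 0 UMIs in monocyte-marked and in alveolar-macrophage-marked cells. Nlrp3, the sensor of the inflammasome that matures IL-1β, stood at 889 CPM in neutrophils and 99.7 CPM in monocyte-marked cells, 3.16 (2.84 to 3.48). Casp1, the protease of the same complex, had 3 UMIs in neutrophils and 59 in monocyte-marked cells, a log2 difference of -1.41 whose interval (-3.73 to 0.21) holds 0.

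**Figure D4:**
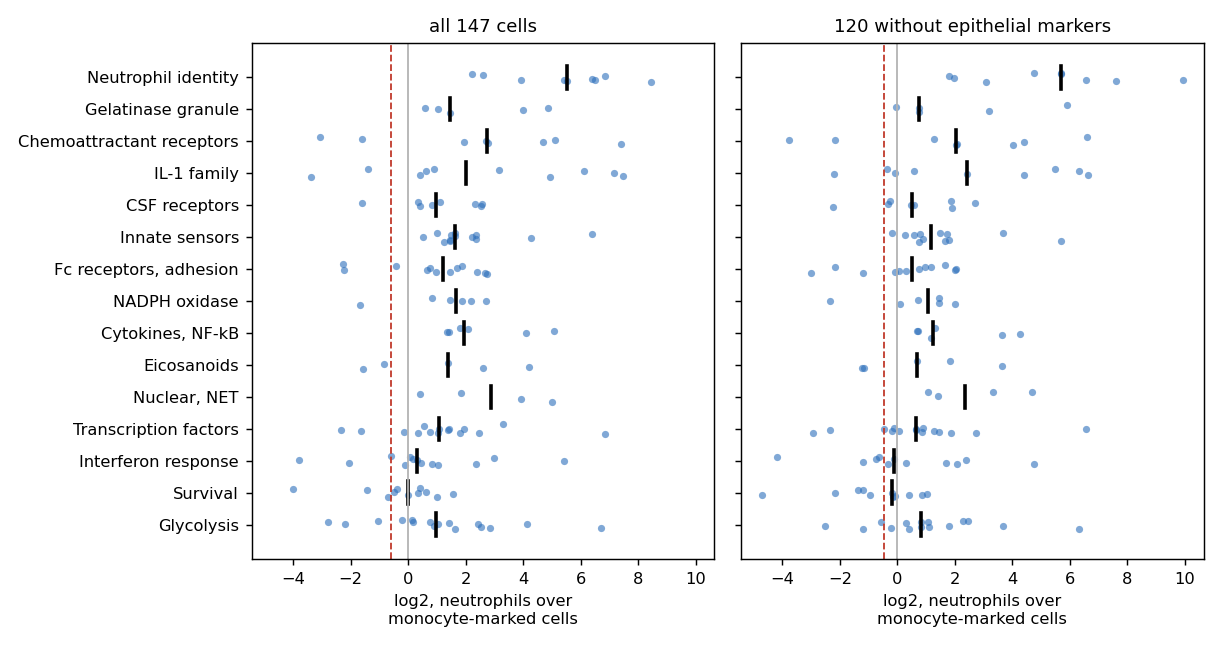
Log2 difference between Cre_Neg neutrophils and monocyte-marked cells (left, all 147 cells; right, the 120 without epithelial markers) for members of 15 gene lists without the 6 rule genes. Each point is a gene, black bars are list medians and the dashed line is the median of all genes compared, -0.58 on the left and -0.47 on the right; the list of neutrophil identity genes has the highest median.

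Receptors for colony-stimulating factors and innate sensors were compared next. Of 8 growth factor receptor and signalling genes compared, the rule genes aside, 4 were called higher and 1 lower than in monocyte-marked cells (3 and 1 against the 120). Csf2rb, the shared chain for GM-CSF, stood at 596 CPM in neutrophils and 101 CPM in monocyte-marked cells, a log2 difference of 2.56 (2.21 to 2.91). Csf1r was the lower one, at 132 CPM in neutrophils and 401 CPM in monocyte-marked cells, -1.60 (-2.22 to -1.05). Csf1r is among the 8 markers that chose the monocyte-marked cells, so this call supports nothing. Of 13 innate sensor genes compared, 11 were called higher and none lower, and 6 of 12 against the 120. Trem3, a relative of Trem1, differed by 4.28 (3.71 to 4.89). Clec7a, the β-glucan receptor, differed by 2.37 (2.06 to 2.67), with 37 of its 152 neutrophil UMIs in 1 cell. Syk, the kinase that lectin receptors signal through, differed by 1.46 (1.28 to 1.63), or 0.77 against the 120.

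Of 12 Fc receptor and adhesion genes compared, 6 were called higher and 2 lower than in monocyte-marked cells (4 and 3 against the 120). Itgax counted among the higher ones, and 1 neutrophil held 33 of its UMIs. Selplg, a ligand for rolling on vessel walls, stood at 386 CPM in neutrophils and 58.1 CPM in monocyte-marked cells, a log2 difference of 2.73 (2.27 to 3.19). Cd44, the hyaluronan receptor, stood at 4278 CPM in neutrophils and 1172 CPM in monocyte-marked cells, 1.87 (1.75 to 1.99). Fcgr2b, the inhibitory Fc receptor, had 3 UMIs in neutrophils and 106 in monocyte-marked cells (-2.26, -4.56 to -0.67).

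The subunits of the NADPH oxidase were divided. Of 6 compared, 4 were called higher and 1 lower than in monocyte-marked cells (3 and 1 against the 120). The cytosolic subunit Ncf1 was higher, at 547 CPM in neutrophils and 83.8 CPM in monocyte-marked cells (2.71, 2.33 to 3.08). Cybb, the catalytic membrane subunit gp91phox, was lower, at 230 CPM in neutrophils and 731 CPM in monocyte-marked cells (-1.67, -2.12 to -1.25). Its 47 UMIs lay in 6 of the 60 neutrophils, 25 of them in 1 cell, so 54 cells had Cybb at 0 UMIs, while 44 had a UMI of Ncf1. With 2 rule genes as the minimum, which lets in cells with macrophage and monocyte markers, the log2 difference of Cybb turned to 0.17. The cell with 25 of the UMIs was the one with 8 alveolar macrophage markers. A minimum of 4 rule genes left out all 4 Cre_Neg cells with 3 rule genes, among them that cell and 2 with at least 3 monocyte markers. The difference was then -4.89 (-6.77 to -3.53).

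Genes of secreted mediators and their NF-kB regulators came next. All 6 cytokine, chemokine and NF-kB genes compared were called higher than in monocyte-marked cells, and 4 of 6 against the 120. Cxcl2, a ligand of Cxcr2, had a UMI in 20 cells and stood at 288 CPM in neutrophils and 8.58 CPM in monocyte-marked cells, a log2 difference of 5.07 (4.19 to 6.06). Osm, oncostatin M, had a UMI in 17 cells and differed by 4.08 (3.31 to 4.89). Of 5 eicosanoid genes compared, 3 were called higher and 1 lower (2 and 2 against the 120). Ptgs2, the inducible cyclooxygenase, had a UMI in 29 cells and stood at 733 CPM in neutrophils and 40.3 CPM in monocyte-marked cells, 4.19 (3.75 to 4.64). Alox5, which begins leukotriene synthesis, differed by 2.60 (2.02 to 3.16) against monocyte-marked cells but stood at 239 CPM in neutrophils and 235 CPM in alveolar-macrophage-marked cells.

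Nuclear and extracellular trap genes numbered 4, of which 3 were called higher than in monocyte-marked cells (4 against the 120). Lmnb1, lamin B1 of the nuclear lining, had a UMI in 56 cells and stood at 1192 CPM in neutrophils and 37.0 CPM in monocyte-marked cells, a log2 difference of 5.01 (4.59 to 5.46). Padi4, which citrullinates histones in trap formation, differed by 3.91 (3.24 to 4.62) and had 0 UMIs in alveolar-macrophage-marked cells. Lbr, the lamin B receptor needed for lobed nuclei, differed by 1.83 (1.37 to 2.28), and by -0.17 with 2 rule genes as the minimum.

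Of 15 transcription factor genes compared, 9 were called higher and 2 lower than in monocyte-marked cells (5 and 2 against the 120). Ets2 differed by 3.31 (2.94 to 3.68) and Junb, an AP-1 subunit, by 2.46 (2.13 to 2.78). The 2 lower ones were Klf4 and Irf8, factors of the monocyte lineage: Klf4 had 3 UMIs in neutrophils and 111 in monocyte-marked cells (-2.32, -4.62 to -0.74), and Irf8 had 5 in neutrophils and 114 in monocyte-marked cells (-1.62, -3.27 to -0.36). Interferon response genes were mixed, 4 of 13 higher and 2 lower (4 and 2 of 11). Slfn4 (5.41, 4.84 to 6.04) and Oasl2 (3.00, 2.59 to 3.41) were higher, while Mx1, an antiviral GTPase, had 1 UMI in neutrophils and 104 in monocyte-marked cells (-3.81, -9.13 to -1.30).

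Survival genes lay near the monocyte-marked level, with 1 of 11 called higher and 2 lower (1 and 4 against the 120). Mcl1, the short-lived survival protein on which neutrophils depend, stood at 659 CPM in neutrophils and 222 CPM in monocyte-marked cells, a log2 difference of 1.57 (1.27 to 1.86). Bcl2 had 0 UMIs in the 60 Cre_Neg neutrophils and 360 UMIs in monocyte-marked cells. With the 0 at 3 counts, the log2 difference was -4.02, a bound on a lower level in neutrophils. Of 16 glycolysis and glucose genes, 8 were called higher and 3 lower (7 and 2 of 15 against the 120). Slc2a3, a high-affinity glucose transporter, stood at 278 CPM in neutrophils and 2.64 CPM in monocyte-marked cells (6.72, 5.29 to 8.64). Slc16a3, which exports lactate, differed by 4.11 (3.59 to 4.66), and Pygl, which breaks down glycogen, by 2.86 (2.54 to 3.18).

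Against the 195 Cre_Neg alveolar-macrophage-marked cells, 16.5% of 8215 genes were called higher and 32.6% lower in neutrophils. With the rule genes left out, identity genes were called higher in 9 of 10 and lower in 1, Wfdc21, gelatinase granule genes higher in 5 of 6 and interferon response genes higher in 6 of 7. Of chemoattractant receptors 5 of 7 were higher, of colony-stimulating factor receptors 3 of 8, and neither list had a gene called lower. Innate sensors were higher in 8 of 13 and lower in 1, and transcription factors higher in 9 of 14 and lower in 3. Cytokine genes were higher in 5 of 8 and lower in 2, NADPH oxidase genes higher in 4 of 7 and lower in 2, and Fc receptor and adhesion genes higher in 4 of 12 and lower in 2. The IL-1 family had 7 of 12 higher and 4 lower, glycolysis genes 7 of 16 higher and 2 lower, and nuclear genes 3 of 4 higher and 1 lower. More genes were lower than higher for eicosanoids (2 of 7 higher, 3 lower), survival genes (3 of 11 higher, 4 lower) and the cell cycle (0 of 4 higher, 4 lower), and the 1 azurophil and 1 specific granule gene compared were lower. Against all 7733 other kept Cre_Neg cells, 22.2% of 11122 genes were called higher and 34.5% lower. There 12 of 12 identity genes, 9 of 9 chemoattractant receptors, 7 of 7 NADPH oxidase genes and 13 of 14 innate sensors were called higher. Survival genes were called higher in 4 of 12 and lower in 1.

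Outside the lists, the genes that stood farthest above monocyte-marked cells were ranked by the interval bound, with the same sign in every sublibrary that had a UMI. Cd101, a surface protein of mature mouse neutrophils, had 171 UMIs in 45 neutrophils and 3 UMIs in monocyte-marked cells, a log2 difference of 8.72. Nlrp12, a sensor of the NLR family, had 71 UMIs in 39 neutrophils and 0 UMIs in monocyte-marked and alveolar-macrophage-marked cells. Slc40a1, the iron exporter ferroportin, had 88 UMIs in 39 neutrophils and 1 UMI in monocyte-marked cells. Arg2, the mitochondrial arginase, had 144 UMIs in 46 neutrophils and 6 UMIs in monocyte-marked cells (7.47). Rdh12, a retinol dehydrogenase, had 49 UMIs in neutrophils and Scrg1 had 42, against 0 UMIs each in monocyte-marked cells. Sycp2, known as a protein of the meiotic chromosome axis, had 80 UMIs in 34 neutrophils, 1 UMI in monocyte-marked cells and 61 UMIs in alveolar-macrophage-marked cells. The neutrophils held 204745 UMIs of all genes and the alveolar-macrophage-marked cells 2704816, so similar counts are not similar levels.

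Against the 120 cells without epithelial markers the leaders also held Pip5k1b, a lipid kinase, with 256 UMIs in neutrophils and 9 in those cells, and Csf1, the macrophage growth factor, with 84 UMIs in neutrophils and 2 in those cells. Crispld2 had 51 UMIs in neutrophils and 0 in those cells, but in 11 neutrophils only. On the lower side against the 120 stood Slc8a1, a sodium-calcium exchanger, with 27 UMIs in neutrophils and 1855 in those cells, Grk3, a receptor kinase, with 6 UMIs in neutrophils and 655 in those cells, and Heg1, with 1 in neutrophils and 275 in those cells. Against all 147, the genes farthest on the lower side were ciliary genes such as Cfap299 and Dnah12. The 7 ciliated markers were all called lower in that comparison, and none had enough UMIs to enter against the 120. Against all other kept cells, the leaders included Trpm2, Jaml and Trim30b. Trpm2, an ion channel opened by oxidants, stood at 669 CPM in neutrophils (137 UMIs) and 2.26 CPM in other cells (185 UMIs). Jaml, an adhesion molecule of leukocyte transmigration, stood at 611 CPM in neutrophils (125 UMIs) and 2.18 CPM in other cells (178 UMIs). Trim30b stood at 615 CPM in neutrophils (126 UMIs) and 2.32 CPM in other cells (190 UMIs).

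Within Cre_Neg neutrophils, genes tied to age and activation were found in overlapping fractions of cells. Cxcr4, a receptor that rises as neutrophils age in blood, had 28 UMIs in 19 of the 60 cells. Retnlg and Mmp8, transcripts of younger mature cells, were both found in 9 cells, Retnlg alone in 9, Mmp8 alone in 11 and neither in 31. Ptgs2 and Cxcl2, both induced by inflammatory signals, were both found in 8 cells, Ptgs2 alone in 21, Cxcl2 alone in 12 and neither in 19. Ptgs2 and Acod1 were both found in 13 cells, Ptgs2 alone in 16, Acod1 alone in 9 and neither in 22. Slfn4 and Oasl2 were both found in 30 cells, Slfn4 alone in 7, Oasl2 alone in 8 and neither in 15. The chance of a UMI grows with a cell's depth, which ran here between 796 and 25691 UMIs, and its part in these overlaps was not tested.

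**Figure D5:**
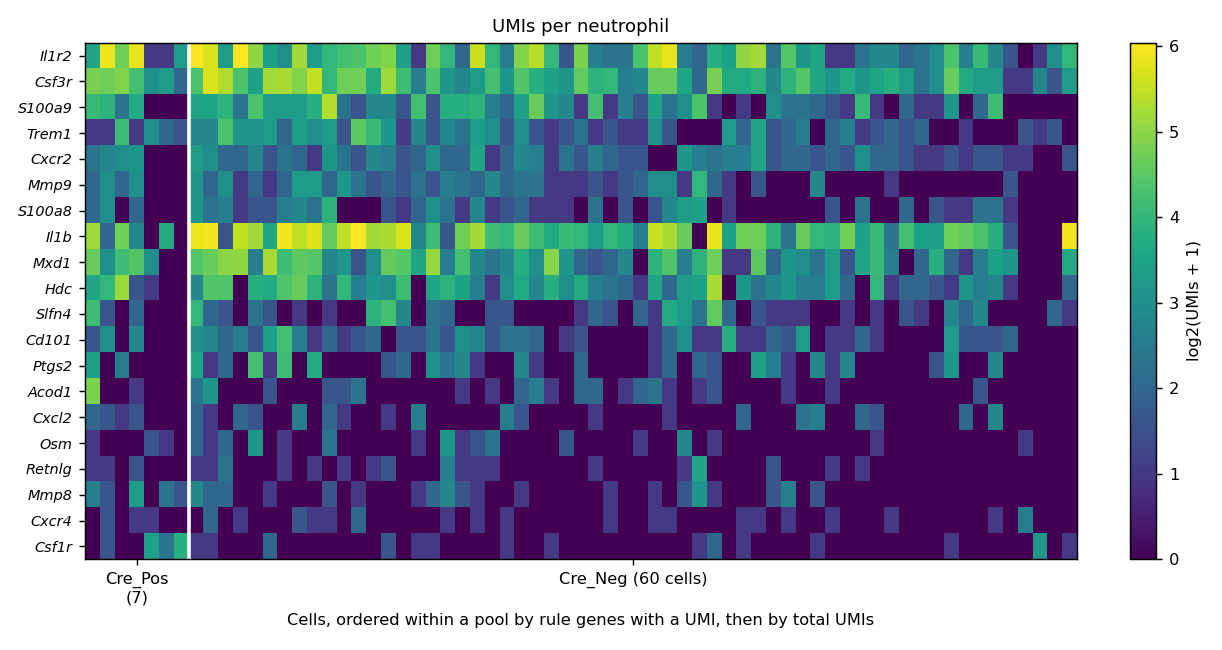
UMIs of 20 genes in each of the 67 neutrophils, colour on a log2(UMIs + 1) scale, with the 7 Cre_Pos cells left of the white line and the 60 Cre_Neg cells right of it. Within a pool, cells are ordered by how many of the 6 rule genes they have and then by UMIs; the last 3 Cre_Pos columns lack S100a9, Cxcr2 and Mmp9 and carry Csf1r.

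Shares of cells with a UMI were also set at a common depth of 1000 UMIs per cell. Cells with fewer than 1000 UMIs were left out of the expected shares but not of the unthinned ones. Among Cre_Neg neutrophils these cells had 796, 885 and 947 UMIs. At that depth Csf3r was expected in 94.2% of Cre_Neg neutrophils (100% unthinned) and in 12.8% of monocyte-marked cells (51.0% unthinned, median 7595 UMIs). S100a9 was expected in 71.6% of Cre_Neg neutrophils (85% unthinned), and it was in none of the monocyte-marked cells. S100a8 was expected in 42.6% (65% unthinned) and Cxcr2 in 69.3% (93.3% unthinned). Il1b was expected in 90.4% of Cre_Neg neutrophils and in 9.17% of monocyte-marked cells.

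Gene levels in the 2 pools could be set side by side for few cells. Over all 7 Cre_Pos and 60 Cre_Neg cells, all 6 rule genes were lower in Cre_Pos: S100a9 stood at 787 CPM in Cre_Pos and 2027 CPM in Cre_Neg, a log2 difference of -1.37 (-1.84 to -0.92). The 3 Cre_Pos cells with monocyte markers held 40878 of the 58481 Cre_Pos UMIs. Leaving out cells with 3 monocyte markers and, in Cre_Neg, the cell with 8 alveolar macrophage markers, which held 25691 UMIs and none of S100a9, S100a8, Il1r2 or Il1b, left 4 Cre_Pos and 57 Cre_Neg cells, a set chosen after seeing the data. There S100a9 stood at 2613 CPM in Cre_Pos and 2522 CPM in Cre_Neg, 0.05 (-0.42 to 0.49). S100a8 stood at 739 CPM in Cre_Pos and 851 CPM in Cre_Neg (-0.20, -1.15 to 0.62). The intervals of Csf3r (0.01, -0.30 to 0.31), Mxd1 (-0.04, -0.42 to 0.32) and Cd101 (-0.29, -1.15 to 0.48) also held 0. With that 1 cell kept among 58 Cre_Neg cells, the differences were 0.26 for S100a9 and 0.01 for S100a8. The cell called a doublet stayed among the 57 and the 58. S100a9 and Csf3r, like the other rule genes, chose the cells, so their values in this paragraph are a description and support nothing.

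Some genes had intervals without 0 in the same 4 against 57 cells, with counting error alone in those intervals. The share of all genes with such intervals is not given here, so these genes are examples only. Il1b stood at 3977 CPM in Cre_Pos and 8514 CPM in Cre_Neg (-1.10, -1.47 to -0.75), and its UMIs in the 4 Cre_Pos cells were 3, 6, 26 and 35. Il1r2 stood at 8578 CPM in Cre_Pos and 6029 CPM in Cre_Neg (0.51, 0.25 to 0.76), with 11, 25, 57 and 58 UMIs in the 4 cells. Il1r2 is a rule gene that chose the cells, so its values are a description and support nothing. Mmp8 stood at 909 CPM in Cre_Pos and 316 CPM in Cre_Neg (1.52, 0.62 to 2.36), with 0, 2, 5 and 9 UMIs. Acod1 stood at 1647 CPM in Cre_Pos and 334 CPM in Cre_Neg (2.30, 1.60 to 2.98), but 28 of its 29 Cre_Pos UMIs lay in 1 cell. The single-cell levels of the Cre_Pos cells lay within the Cre_Neg range for Il1b and Il1r2.

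RNA outside cells was read from barcodes with at most 50 UMIs. There the 6 rule genes together stood at 20.9 CPM in Cre_Pos (133 UMIs) and 30.1 CPM in Cre_Neg (160 UMIs), a ratio of 0.694 (0.547 to 0.879). S100a8 and S100a9 together, the transcripts most limited to neutrophils, had 13 UMIs in Cre_Pos and 20 in Cre_Neg, a ratio of 0.543 (0.248 to 1.15). This ratio and that of the cell share, 0.104 with an upper bound of 0.228, are from different barcodes, and the difference between them was not tested. Of the UMIs of S100a8 and S100a9 in kept cells, 93.7% in Cre_Pos and 99.3% in Cre_Neg lay in neutrophils.

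Sex could be read in few of these shallow cells. In Cre_Pos, 4 cells had Xist and no Y-linked UMI, and 3 had neither. In Cre_Neg, 7 cells had Xist alone, 4 had Y-linked UMIs alone and 49 had neither. Without cells of 3 monocyte markers, 1 Cre_Pos cell had Xist and 3 had neither, and in Cre_Neg 5 had Xist alone, 4 had Y-linked UMIs alone and 49 had neither. First-round wells were spread as well: the Cre_Pos neutrophils lay in 6 of 23 wells with kept cells and the Cre_Neg neutrophils in 21 of 22, with at most 7 in a well.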

How the data were processed

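SPLiT-seq counts from mouse lung were used (Parse Evercode WT v2, per the labels' protocols). The authors deposited a matrix of raw UMI counts per barcode and gene, without normalization, with a cell table that names pool and well. The matrix held 647296 barcodes, 57010 genes and 191160309 UMIs; its lowest barcode had 10 UMIs. The genome build is GRCm39 per the submitters' processing notes, while the deposited gene table names mm10; the sources used here do not give the aligner. The other deposited columns hold names, not measurements.

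Counts were summed over cells and divided by the summed UMIs (CPM). Shares have exact Clopper-Pearson, levels exact Poisson and ratios exact conditional binomial 95% intervals, and all cover counting error only. The gene ratio intervals alone were checked on simulated counts. These were drawn with counting error and no spread between cells, so the check does not cover UMIs that gather in single cells. With 1 pool per genotype no p-value was computed. Monocyte-marked cells had at least 3 of 8 monocyte markers and fewer than 3 neutrophil, endothelial, macrophage, dendritic or lymphoid markers. The 8 were Ccr2, Ly6c2, Ms4a4c, Csf1r, Cx3cr1, Ace, Adgre4 and Plac8. Alveolar-macrophage-marked cells had at least 3 of 10 markers. Doublets were called with Scrublet per sublibrary (scanpy 1.11.5). Other tools were Python 3.11.15, numpy 2.4.6, scipy 1.17.1, pandas 2.3.3 and matplotlib 3.10.9.

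Genes named were the 6 rule genes, the 4 members of each list with most UMIs or those with a 2-fold difference, and outside the lists the 10 with the interval bound farthest from 0; fewer are printed. Members and gene lists were chosen with earlier results of these data known.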

Additional observations from a re-analysis of the deposited data

How the results depend on the processing

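No paired analysis was possible because each genotype was 1 pool and the sublibraries hold both pools. The share ratio of Cre_Pos to Cre_Neg was 0.104 of kept and 0.175 of immune-marked cells. With at least 2 rule genes it was 0.361 (49 Cre_Pos and 121 Cre_Neg cells) and 0.610. Leaving out each sublibrary gave 0.0407 to 0.148 of kept cells and 0.0722 to 0.250 of immune-marked cells. With at least 2 rule genes, genes called against alveolar-macrophage-marked cells were 834 higher and 878 lower, in place of 1355 and 2674. Requiring an interval without 0 as well, chosen after seeing the data, left 1574 lower. Leaving out monocyte-marked cells with epithelial markers, also chosen after seeing the data, left 2053 lower in place of 3244. The other 140 summary values moved by less than 1.5 times or the counting interval. Against monocyte-marked cells, these log2 differences changed sign with at least 2 rule genes: Cybb 0.17, Nfkbiz -0.045, Pla2g4a 0.18, Lbr -0.17 and Pcna 1.02. Chil3 changed sign to -1.62 with at least 4 rule genes, -1.29 with no endothelial UMI, -1.70 without members carrying markers of other lineages, -1.09 without sublibrary 3 (range -1.09 to 3.52 over leaving out each sublibrary) and -0.17 as a mean of per-cell CPM, since its UMIs lay in 1 cell of sublibrary 3. Depth limits what can be said of the 7 Cre_Pos cells: their 58481 UMIs leave most genes with few counts, and 1 pool per genotype leaves differences between mice unmeasured.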
